A study of Homo sapiens with 6 samples.

Results

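The proteasome genes described here are the 38 human genes PSMA1 to PSMA7, PSMB1 to PSMB7, PSMC1 to PSMC6, PSMD1 to PSMD14 and PSME1 to PSME4. They were chosen by symbol, with no measured value in the rule, and all 38 were found among the 58336 gene identifiers of the count tables and among the 15830 genes that passed a filter on low counts. RNA sequencing compared 2 groups of 3 libraries from 12Z, an immortal line of epithelial cells derived from human endometriosis. One group received an siRNA against SMARCA4, the gene of the chromatin remodelling ATPase BRG1 (siBRG1), and the other a non-targeting siRNA (control), each at 50 nM. Both groups were grown in 10% serum without antibiotic during transfection, had their medium renewed at 24 h, were moved to 0.5% serum at 48 h and gave RNA at 72 h. The extraction protocol, shared by all labels, also speaks of a drug or vehicle given for 48 h, without naming either. Strand-specific libraries of polyadenylated RNA started from 500 ng of total RNA. The knockdown was transient, in 1 cell line. No label says whether replicates came from different cultures, and p-values then cover only the spread among these libraries, part of which may be technical. The comparison asks how transcripts of the proteasome differ in epithelial cells with less BRG1.

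The proteasome is the protease complex that degrades proteins tagged with ubiquitin. Its 20S core is a barrel of alpha and beta rings, in which the alpha subunits form the outer rings and the gate, and some of the beta subunits carry the proteolytic sites inside. The 19S particle caps the barrel: its base holds a ring of ATPases that unfold the substrate, its lid removes the ubiquitin chain, and other activators can take its place. When proteasome activity falls, the transcription factor NRF1 (NFE2L1) is known to raise the transcription of most subunit genes together.

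The siRNA target SMARCA4 lay at 60.5, 78.9 and 50.6 CPM in siBRG1 and at 244, 266 and 262 CPM in control, where CPM is the count scaled to the library total corrected by TMM. The groups were far apart. Its log2 fold change, siBRG1 over control, was −2.03 (with SE 0.16, adjusted p = 0.000267). Gene counts came to 12391161 to 13369692 per siBRG1 library and 40228678 to 49720320 per control library. The labels mark the 3 control samples, and no siBRG1 sample, as analysed again from an earlier deposit, so this difference and the siRNA cannot be told apart for any gene below. Reads placed at several sites of the genome made up 20.3% ± 1.62 of the siBRG1 reads and 9.81% ± 0.224 of the control reads (SD, n = 3). Their part in the changes below was not tested. Of 8 markers of the epithelial line, a list that also holds the mesenchymal genes CDH2 and VIM, all were counted. The 4 that fell were KRT7, KRT19, CDH2 and VIM, and the 3 that rose were KRT8, EPCAM and CDH1. The sum of all 8 was 5332 to 5453 CPM in siBRG1 and 6247 to 6454 CPM in control. Mean CPM went from 2096 in control to 1597 in siBRG1 for VIM, 298 to 181 for CDH2 and 883 to 609 for KRT19. For CDH1 it went from 3.05 to 5.87 CPM. The keratin KRT8 lay at 1612 to 1704 and 1546 to 1571 CPM, while the keratin KRT7 fell 5.29-fold (log2 fold change −2.40). The epithelial adhesion gene EPCAM was nearly absent, at 1.31 to 1.80 CPM in siBRG1 and 0.178 to 0.350 CPM in control. Summed over 8 fibroblast markers the level was 4918 to 5269 CPM in siBRG1 and 2747 to 2940 CPM in control, and 7 of the 8 rose. Summed over 6 immune markers it was 9.83 to 10.5 and 4.10 to 5.50 CPM, with CD3E at 0 counts throughout, and over 5 endothelial markers 15.1 to 21.3 and 17.4 to 20.1 CPM. Whether these markers bear on the proteasome genes was not tested.

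Transcripts of the 19S particle were mostly lower after SMARCA4 siRNA, while those of the 20S core went both ways by smaller amounts. The largest falls were in PSMC1 (2.59-fold lower), PSMD11 (2.50-fold), PSMD12 (2.23-fold), PSMD2 (2.22-fold) and PSME4 (2.05-fold), and no member rose 2-fold. The largest rises were in PSME2 (1.80-fold higher), PSMA6 (1.74-fold) and PSME1 (1.53-fold). At an adjusted p under 0.05 in edgeR's quasi-likelihood test, 22 of the 38 genes fell, 10 rose and 6 did not pass. Among all 15830 genes tested 72.6% passed (36.5% fell and 36.1% rose), so a call by itself is common in these data. Among the 4889 protein-coding genes with a mean of at least 50 CPM, a comparison chosen after the values were seen, 48.4% fell and 36.8% rose. A fall of at least 2-fold was called for 5 of the 38 members, for 11.1% of all genes tested and for 4.83% of those 4889 genes. The CPM of the groups did not overlap for 33 members, against 74.3% of all genes tested. The median log2 fold change of the members was −0.24, beside −0.01 over all genes tested and −0.08 over the 4889. Of the 38 genes, the authors' deposited table called 25 lower and 10 higher, with a median log2 fold change of −0.27, where 31% of all listed genes were called lower and 26.2% higher. In bulk RNA, fewer cells that carry a transcript and less of it per cell cannot be told apart.

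**Figure D1:**
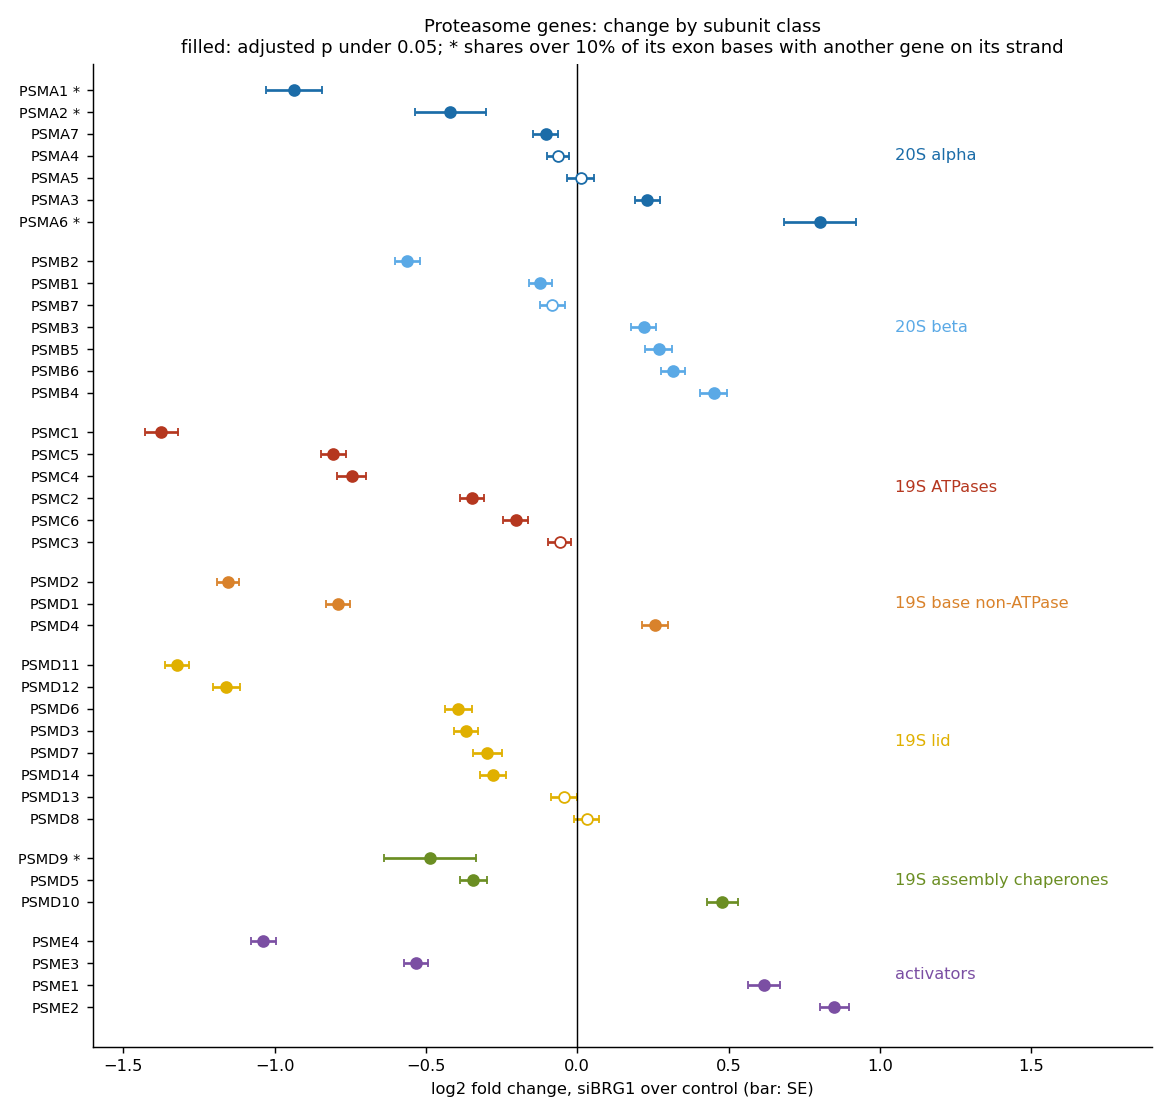
Log2 fold change (siBRG1 over control, x axis) of each of the 38 proteasome genes (y axis, by subunit class), with bars of 1 SE and filled points for an adjusted p under 0.05. The ATPase, base and lid classes lie mostly left of 0, down to −1.37 for PSMC1, while the beta subunits lie between −0.56 and 0.45.

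Promoters were read for the DNA letters of factors known to bind proteasome genes. The RefSeq promoter table (GRCh38.p14) held 33 of the 38 members, without PSMA7, PSMB1, PSMB6, PSMB7 and PSMD4, and the 250 bases before the first listed start were searched on both strands. The core of the element bound by NRF1 and its relatives with small MAF proteins, TGACNNNGC, stood in 8 of 33 (24.2%), against 12.9% of the promoters of the protein-coding genes with a mean of at least 50 CPM and 10.9% of all 35116 promoters. The 8 were PSMB3, PSMD3, PSMD5, PSMD9, PSMD12, PSME1, PSME2 and PSME4, of which 5 fell and 3 rose. The NF-Y letters CCAAT stood in 15 of 33 (45.5%, against 36.6% and 32.0%), and the ETS letters CCGGAAG in 8 of 33 (24.2%, against 18.9% and 8.52%), of which 7 were PSMC or PSMD genes and none was among the 10 core genes in the table. Short stretches around TGACNNNGC, written 5′ to 3′ on the strand of the gene with the match in capitals, are shown for 2 members that fell and 2 that rose. They are PSMD12 at chr17:67366709-67366767 (minus strand), PSMD5 at chr9:120843023-120843081 (minus strand), PSMB3 at chr17:38752612-38752670 (plus strand) and PSME1 at chr14:24136083-24136141 (plus strand). None of the 4 overlaps an exon of its gene in GENCODE 29. They were picked after the values were seen.
PSMD12: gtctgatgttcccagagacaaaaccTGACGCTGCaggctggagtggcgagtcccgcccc
PSMD5: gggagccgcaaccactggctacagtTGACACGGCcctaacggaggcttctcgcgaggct
PSMB3: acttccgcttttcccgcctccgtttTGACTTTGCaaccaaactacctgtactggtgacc
PSME1: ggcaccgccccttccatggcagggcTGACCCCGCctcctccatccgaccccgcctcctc
The same core thus stood before genes that moved in opposite directions. A match describes the letters and is not evidence of a bound site.

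The alpha subunits, which form the gate of the core, showed no common direction: 2 of 7 rose, 3 fell and 2 did not pass, with a median log2 fold change of −0.06. PSMA1 was counted at 14.3, 11.1 and 14.98 CPM in siBRG1 and at 26.8, 25.4 and 24.99 CPM in control. All siBRG1 libraries lay below all control libraries, and the log2 fold change was −0.94 (with SE 0.09, adjusted p = 4.45e-10). PSMA6 went the other way, at 11.3, 10.3 and 10.3 CPM in siBRG1 and 5.95, 5.94 and 6.39 CPM in control, with a log2 fold change of 0.80 (with SE 0.12, adjusted p = 8.86e-07). These 2 largest changes of the class are uncertain, because PSMA1, PSMA2 and PSMA6 share 24.7%, 14.6% and 14.1% of their exon bases with another annotated gene on the same strand, and reads that overlap 2 genes count for neither. PSMA2 fell from 12.2, 10.8 and 12.4 CPM in control to 9.91, 7.45 and 9.10 CPM in siBRG1 (log2 fold change −0.42). It did not pass with unstranded counts (−0.26, adjusted p = 0.0581), where reads over exons of genes on opposite strands also count for neither.

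Among the 4 alpha genes without shared exons the changes were small. PSMA3 rose by 1.17-fold, from 128, 134 and 138 CPM in control to 153, 156 and 160 CPM in siBRG1, with no overlap. PSMA4, whose tail is a main part of the gate, lay at 308, 304 and 315 CPM in siBRG1 and at 329, 319 and 321 CPM in control. The groups did not overlap, but the log2 fold change of −0.06 (with SE 0.04, adjusted p = 0.119) did not pass, and its interval of 2 SE ran from −0.14 to 0.01. PSMA5 overlapped between groups, at 123, 130 and 137 CPM in siBRG1 and 132, 129 and 125 CPM in control (log2 fold change 0.01 with SE 0.04, adjusted p = 0.821, interval −0.08 to 0.10). PSMA7 was called lower by 1.07-fold (log2 fold change −0.10, adjusted p = 0.0252), although its libraries overlapped, at 320, 301 and 333 CPM against 327, 354 and 345 CPM. Its call was lost without siBRG1 replicate 1 (adjusted p = 0.0503), without siBRG1 replicate 2 (adjusted p = 0.149), without control replicate 2 (adjusted p = 0.0853) and when library totals replaced TMM (log2 fold change −0.03), and was kept under 8 of 16 alternatives.

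The beta subunits rose more often than they fell, with 4 of 7 higher, 2 lower and 1 not passing, and a median log2 fold change of 0.22. With library totals in place of TMM the split was 4 higher and 1 lower. PSMB4, a structural subunit, was counted at 181, 189 and 205 CPM in siBRG1 and at 140, 144 and 136 CPM in control. Every siBRG1 library was above every control library (log2 fold change 0.45 with SE 0.04, adjusted p = 3.68e-10). PSMB2, another structural subunit, had the opposite and largest change of the class. It fell from 242, 252 and 255 CPM in control to 168, 160 and 180 CPM in siBRG1, again with no overlap (log2 fold change −0.56 with SE 0.04, adjusted p = 1.58e-12).

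The 3 beta subunits with proteolytic sites differed from each other. PSMB5, which carries the chymotrypsin-like site, rose from 115, 127 and 124 CPM in control to 148, 141 and 153 CPM in siBRG1 (log2 fold change 0.27). PSMB6, which carries the caspase-like site, rose by 1.24-fold, from 167, 168 and 168 CPM to 214, 200 and 213 CPM. PSMB7, which carries the trypsin-like site, lay at 137, 139 and 147 CPM in siBRG1 and 146, 149 and 152 CPM in control. Its groups overlapped by 1 library and its log2 fold change of −0.08 (with SE 0.04, adjusted p = 0.0781, interval −0.17 to 0.00) did not pass. It was called lower without siBRG1 replicate 3 (adjusted p = 0.0291) or without control replicate 1 (adjusted p = 0.0343). With trends of GC content and length removed it was called higher (log2 fold change 0.09, adjusted p = 0.0492). Of the remaining structural subunits, PSMB3 rose by 1.16-fold to 157, 162 and 165 CPM from 138, 139 and 139 CPM, and PSMB1 fell by 1.09-fold to 218, 228 and 230 CPM from 242, 250 and 244 CPM. The call of PSMB1 was lost with library totals (log2 fold change −0.05, adjusted p = 0.281).

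The ATPases of the 19S base, which unfold substrates and push them into the core, fell in 5 of 6 cases and rose in none (median log2 fold change −0.55). PSMC1, whose tail docks into the alpha ring and opens the gate, showed the largest fall of all 38 genes. It was counted at 41.2, 47.2 and 43.9 CPM in siBRG1 and at 118, 114 and 111 CPM in control (log2 fold change −1.37 with SE 0.05, adjusted p = 5.28e-19). Reads from its 13 annotated pseudogenes came to between 2.12% and 4.82% of its own counts in each library. These counts leave out reads placed at several sites, so the share does not cover reads that match PSMC1 and a pseudogene alike. The part of such reads in this fall was not tested. PSMC5 fell from 266, 245 and 257 CPM to 145, 150 and 144 CPM (log2 fold change −0.81 with SE 0.04, adjusted p = 2.43e-16). For both genes each siBRG1 library was far below the lowest control library.

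The rest of the ATPase ring fell by less. PSMC4, another subunit with a docking tail, fell by 1.68-fold, from 127, 126 and 128 CPM to 73.4, 72.8 and 81.2 CPM. PSMC2 fell by 1.27-fold, from 238, 239 and 242 CPM to 182, 189 and 194 CPM, and PSMC6 by 1.15-fold, from 154, 148 and 148 CPM to 128, 132 and 131 CPM. PSMC3, the third ATPase with a docking tail, did not pass: it lay at 254, 259 and 270 CPM in siBRG1 and at 270, 274 and 271 CPM in control. The groups nearly met, and the log2 fold change was −0.06 (with SE 0.04, adjusted p = 0.167, interval −0.13 to 0.02). With trends of GC content and length removed PSMC3 passed at a log2 fold change of −0.20 (adjusted p = 1.71e-05).

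Of the other base subunits, the scaffolds PSMD1 and PSMD2 fell and the ubiquitin receptor PSMD4 rose. PSMD2, to which shuttle receptors and the deubiquitinase USP14 bind, had 377, 371 and 368 CPM in siBRG1 and 830, 826 and 825 CPM in control. Replicates of a group lay within a few CPM of each other, and the log2 fold change was −1.15 (with SE 0.04, adjusted p = 2.41e-21). PSMD1, the second scaffold, fell from 337, 333 and 337 CPM to 186, 196 and 200 CPM (log2 fold change −0.79 with SE 0.04, adjusted p = 8.15e-17). PSMD4 rose by 1.19-fold, from 101, 98.6 and 98.5 CPM to 119, 118 and 120 CPM, with no overlap.

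The lid fell in 6 of 8 genes and rose in none, with a median log2 fold change of −0.33. PSMD11, which clamps the 19S particle onto the core, was counted at 169, 163 and 174 CPM in siBRG1 and at 403, 431 and 432 CPM in control (log2 fold change −1.32 with SE 0.04, adjusted p = 1.46e-21). PSMD12, a structural lid subunit whose promoter letters are printed above, fell from 295, 292 and 300 CPM to 129, 123 and 145 CPM (log2 fold change −1.16 with SE 0.05, adjusted p = 5.76e-19). In both genes the highest siBRG1 library was under 50% of the lowest control library.

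The remaining lid genes that passed moved by less. The structural subunits PSMD6 and PSMD3 fell by 1.31-fold and 1.29-fold, with siBRG1 means of 95.5 ± 3.94 and 208 ± 5.97 CPM and control means of 125 ± 2.02 and 269 ± 7.05 CPM (SD, n = 3). PSMD14, the deubiquitinase of the lid, fell by 1.21-fold, from 169, 165 and 167 CPM to 137, 131 and 146 CPM. With trends of GC content and length removed its fall was gone (log2 fold change 0.01, adjusted p = 0.820). PSMD7, the inactive partner of PSMD14, fell by 1.23-fold, from 101, 95.4 and 95.6 CPM to 78.0, 79.6 and 80.1 CPM. Its exons overlap those of AC009120.2 on the opposite strand, and with counts of both strands together its log2 fold change was 0.05 (adjusted p = 0.439).

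PSMD8 and PSMD13, both structural lid subunits, did not pass. PSMD8 lay at 236, 264 and 244 CPM in siBRG1 and 234, 248 and 246 CPM in control (log2 fold change 0.03 with SE 0.04, adjusted p = 0.514, interval −0.05 to 0.11). PSMD13 lay at 174, 186 and 198 CPM in siBRG1 and 194, 188 and 192 CPM in control (log2 fold change −0.04 with SE 0.04, adjusted p = 0.360, interval −0.13 to 0.04). The groups overlapped for both. With trends of GC content and length removed PSMD8 and PSMD13 were called lower (log2 fold change −0.10 and −0.11, adjusted p = 0.0178 and 0.0180). With library totals PSMD8 was called higher (log2 fold change 0.11, adjusted p = 0.0223).

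The 3 chaperones that help build the 19S base and leave before it is finished split into 1 rise and 2 falls. PSMD10 (gankyrin) rose from 66.2, 63.3 and 68.5 CPM to 93.2, 85.9 and 97.0 CPM, with no overlap (log2 fold change 0.48 with SE 0.05, adjusted p = 2.64e-09). PSMD5 fell by 1.27-fold, from 143, 132 and 132 CPM to 106, 108 and 106 CPM. PSMD9 had the lowest CPM of the members in siBRG1, at 4.74, 3.92 and 6.04 CPM. In control it lay at 6.42, 7.42 and 6.76 CPM, above PSMA6 at 5.95, 5.94 and 6.39 CPM. The log2 fold change of PSMD9 was −0.49 (with SE 0.15, adjusted p = 0.00580). It shares 19.9% of its exon bases with genes on the same strand, and its call was lost without siBRG1 replicate 2 (log2 fold change −0.35, adjusted p = 0.0515).

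The activators divided by type. PSME1 and PSME2, whose products together form the interferon-inducible PA28 ring, both rose, and PSME3, the nuclear PA28 gamma, and PSME4, the large nuclear activator PA200, both fell. PSME2 was counted at 105, 110 and 105 CPM in siBRG1 and 59.4, 61.4 and 57.0 CPM in control (log2 fold change 0.85 with SE 0.05, adjusted p = 2.65e-15). PSME1 rose by 1.53-fold, from 53.2, 58.3 and 53.0 CPM to 82.9, 88.4 and 81.0 CPM. The 2 genes lie 4.395 kb apart on chromosome 14, on opposite strands, the closest pair among the members, which are spread over 15 chromosomes with 7 each on chromosomes 14 and 17.

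PSME4 fell from 233, 233 and 240 CPM to 118, 111 and 115 CPM (log2 fold change −1.04 with SE 0.04, adjusted p = 6.10e-19). PSME3 fell by 1.45-fold, from 289, 296 and 303 CPM to 206, 196 and 212 CPM. For none of the 4 activators did the groups overlap.

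**Figure D2:**
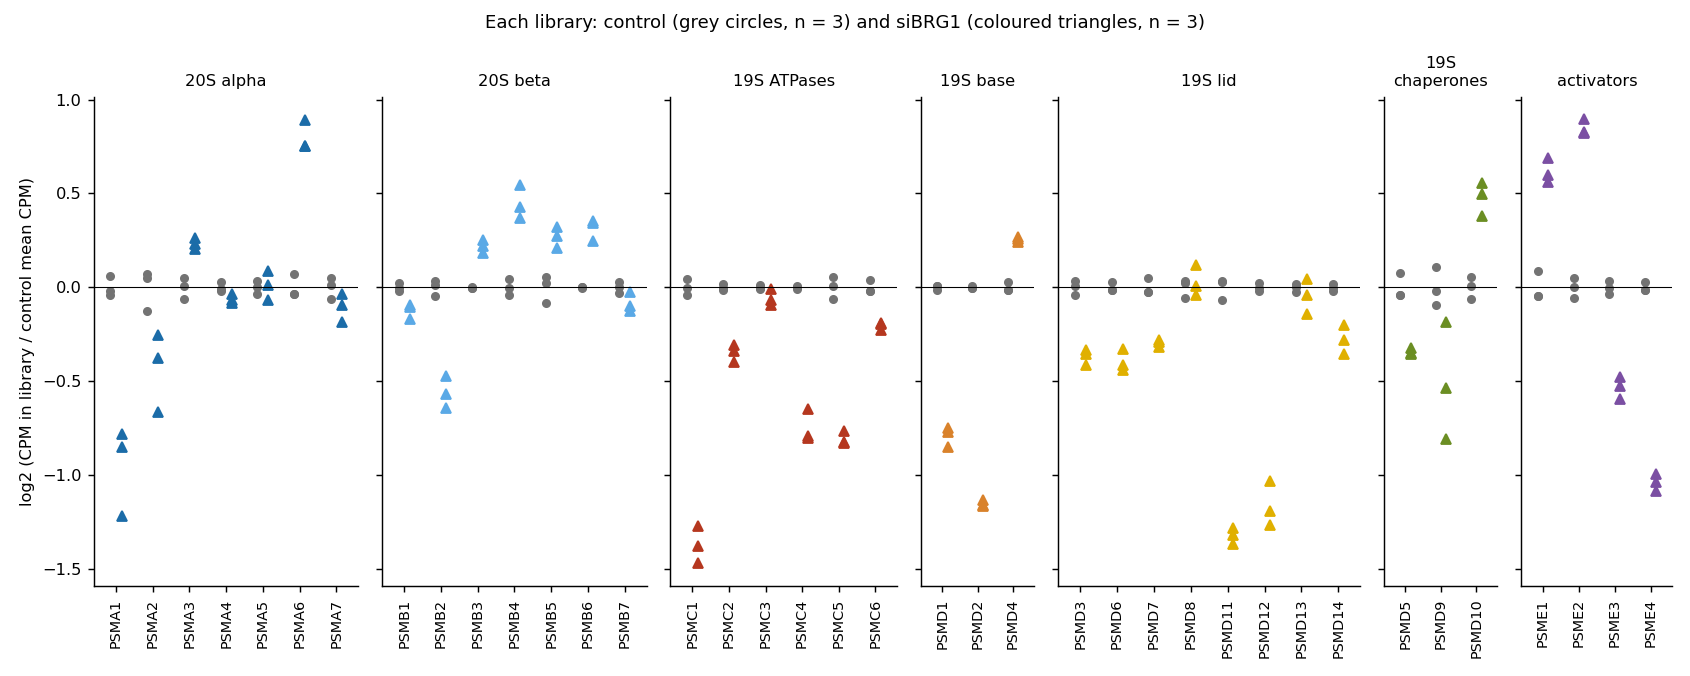
Each library's CPM relative to the control mean of the gene (log2, y axis) for the 38 genes (x axis, by class), with controls as grey circles and siBRG1 as coloured triangles (n = 3 each). The siBRG1 libraries of a gene mostly lie close together, with the widest spread in PSMA1, PSMA2 and PSMD9, and 33 of 38 genes show no overlap of the groups.

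The inducible counterparts of the catalytic subunits, which replace them in the immunoproteasome, rose more than any of the 38 genes. PSMB8 was counted at 38.1, 37.7 and 38.9 CPM in siBRG1 and 11.4, 12.9 and 13.1 CPM in control (log2 fold change 1.62 with SE 0.08, adjusted p = 5.65e-17). PSMB9 was at 20.9, 22.7 and 20.2 CPM against 5.37, 5.96 and 4.90 CPM (log2 fold change 1.97 with SE 0.11, adjusted p = 9.12e-16). PSMB10 was at 5.39, 7.37 and 6.12 CPM against 1.59, 1.35 and 1.62 CPM (log2 fold change 2.04 with SE 0.19, adjusted p = 1.74e-10). A rise of at least 2-fold was called for 10.4% of all genes tested. The tissue-restricted subunits PSMA8 and PSMB11 were too low to be tested.

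Per exon length, taken over all annotated exons of a gene, the inducible forms stayed the minor ones. PSMB8 made up 13.3% ± 0.266 of PSMB8 and PSMB5 together in siBRG1 and 5.66% ± 0.186 in control (SD, n = 3). PSMB9 made up 4.58% ± 0.435 of PSMB9 and PSMB6 together, against 1.496% ± 0.146 in control. PSMB10 made up 4.13% ± 0.636 of PSMB10 and PSMB7 together, against 0.971% ± 0.0924. These shares were computed after the rises were seen.

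**Figure D3:**
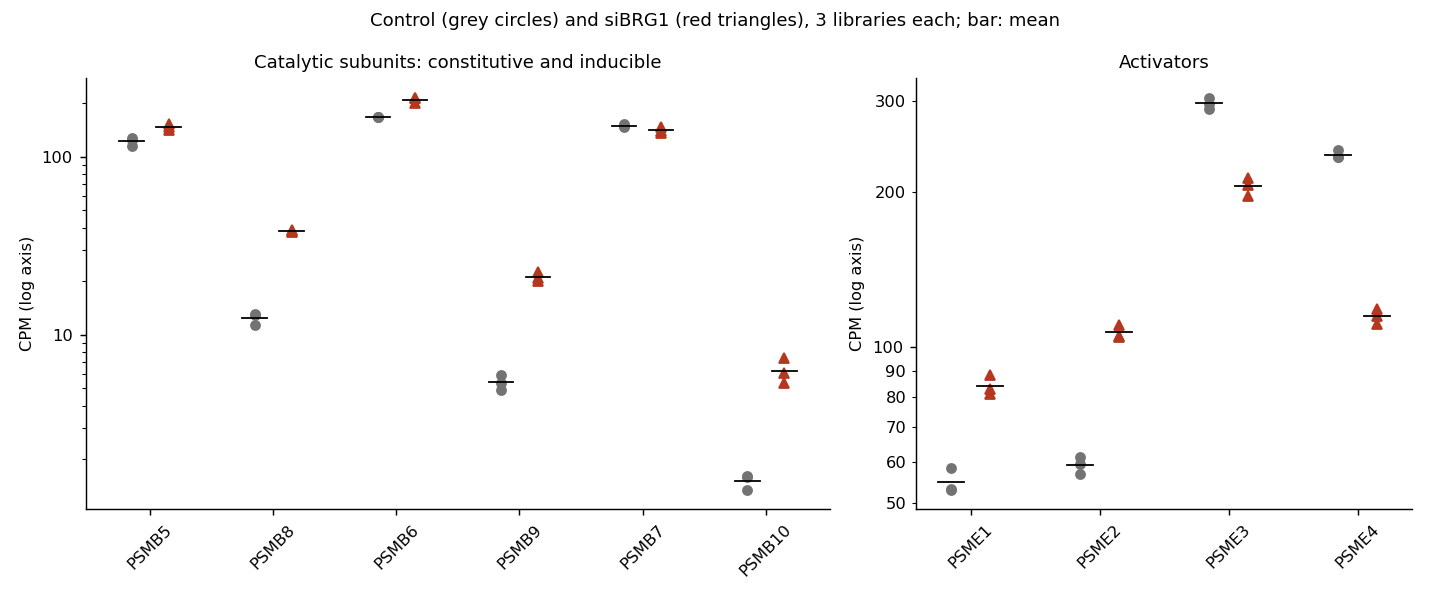
CPM in each library (log y axis) of the catalytic beta subunits beside their inducible counterparts (left) and of the activators (right), with grey circles for control, red triangles for siBRG1 and bars for the mean (n = 3 each). PSMB8, PSMB9 and PSMB10 rise yet stay far below PSMB5, PSMB6 and PSMB7, and PSME1 and PSME2 move against PSME3 and PSME4.

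Summed over the genes of each class, the groups differed mostly in the 19S classes and the activators. The ATPases together had 845 ± 20.8 CPM in siBRG1 and 1158 ± 13.3 CPM in control, a change of −27.0%. The change was −45.7% for the other base subunits and −30.6% for the lid. For the beta subunits it was 2.59%, from 1213 ± 19.9 CPM in control to 1244 ± 40.8 CPM in siBRG1, which is within the spread of the siBRG1 libraries (SD, n = 3). With library totals in place of TMM it was 8.18%, from 1180 ± 17.8 to 1277 ± 45.8 CPM, with no overlap of the groups. For the alpha subunits it was −2.49% and for the chaperones −2.21%, and both turned positive with library totals (2.82% and 3.11%). The activators changed by −21.0% in sum, the balance of PSME3 and PSME4 against PSME1 and PSME2.

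The ratio of counts of the 17 members in the finished 19S particle to those of the 14 core genes needs no scaling between libraries. It was 1.26, 1.30 and 1.25 in siBRG1 and 1.96, 1.91 and 1.94 in control, with means of 1.27 ± 0.0272 and 1.94 ± 0.0246 (SD, n = 3). The groups were far apart relative to their spread. The ratio was chosen after the classes were seen to differ, so no test is attached to it. Of those 17 genes 13 fell and 1 rose, with a median log2 fold change of −0.37. Of the 14 core genes 5 fell and 6 rose, with a median of −0.03. Without the 3 alpha genes that share exons the core had 3 falls and 5 rises among 11 genes, with a median of 0.01.

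Levels of different subunits were set against each other per kilobase of exon, taken over all annotated exons of a gene. That length was 9.12 kb for PSMD6, 6.16 kb for PSMC1 and 1.75 kb for PSMA7. Their longest annotated transcripts have 4583, 4448 and 1023 bases. Levels and ranks between genes, and the ratio of highest to lowest, depend on this choice of length. In control the highest was PSMA7, at 195 ± 7.78 CPM per kb, followed by PSMD2 at 152 ± 0.503, PSMC3 at 119 ± 0.877, PSMB3 at 118 ± 0.310 and PSMB6 at 116 ± 0.361 CPM per kb (SD, n = 3). Among the 34 members that share at most 2.15% of their exon bases with another gene on the same strand, the lowest was PSMD6, at 13.7 ± 0.222 CPM per kb. The ratio of the highest to the lowest was 14.2-fold in control and 25.4-fold in siBRG1, where PSMC1 took the lowest place, at 7.16 ± 0.490 CPM per kb. Along the order of all 38 in control, 11 of 37 neighbouring pairs had overlapping libraries, among them PSMB5 and PSMC2, PSMB4 and PSMD1, and the run from PSMD11 to PSMC4.

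The order changed with the siRNA. PSMD2 went from rank 2 in control to rank 10 in siBRG1, at 68.2 ± 0.848 CPM per kb, PSMD11 from 13 to 28 and PSMD12 from 16 to 26. PSMB6 went from rank 5 to rank 2, PSME1 from 25 to 13 and PSME2 from 33 to 24. PSMA7 stayed first. Ranks 35 to 38 were held in both groups by PSMA1, PSMA2, PSMA6 and PSMD9, the 4 genes that share between 14.1% and 24.7% of their exon bases with other genes, at 0.783 to 7.79 CPM per kb in control. Counted over bases that are not shared they came to 0.977 to 10.3 CPM per kb, still the lowest 4. Reads on shared exons count for neither gene, so the levels and ranks of these 4 remain uncertain.

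**Figure D4:**
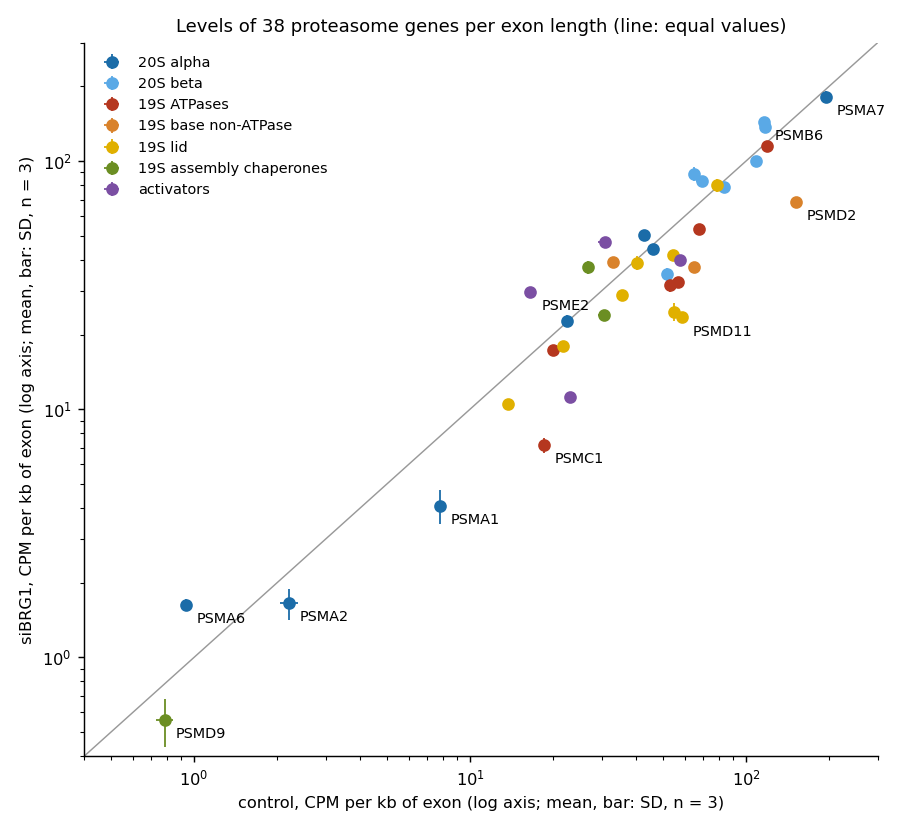
Level of each of the 38 genes per kb of exon in control (x axis) and siBRG1 (y axis), both on log axes, as means with bars of 1 SD (n = 3). PSMD2, PSMD11 and PSMC1 lie well below the line of equal values, PSME2 above it, and the 4 genes that share over 10% of their exon bases at the lower left.

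The fit was repeated with trends of GC content and transcript length removed, since the groups differ in depth and in where their reads fell. The members then had 23 falls and 12 rises, with a median log2 fold change of −0.18, where 33.2% of all genes tested fell and 37% rose. The 5 genes with falls of 2-fold or more gave −1.35 (PSMC1), −1.29 (PSMD2), −1.29 (PSMD11), −1.04 (PSMD12) and −0.85 (PSME4). All 6 ATPases and 7 of the 8 lid genes among the members were then called lower, PSMD14 being the exception among those 8. In the alpha class 3 then rose and 2 fell, with a median of 0.03. PSMB3, the shortest of the members by its transcript of 773 bases, moved from 0.22 to 0.47.

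**Figure D5:**
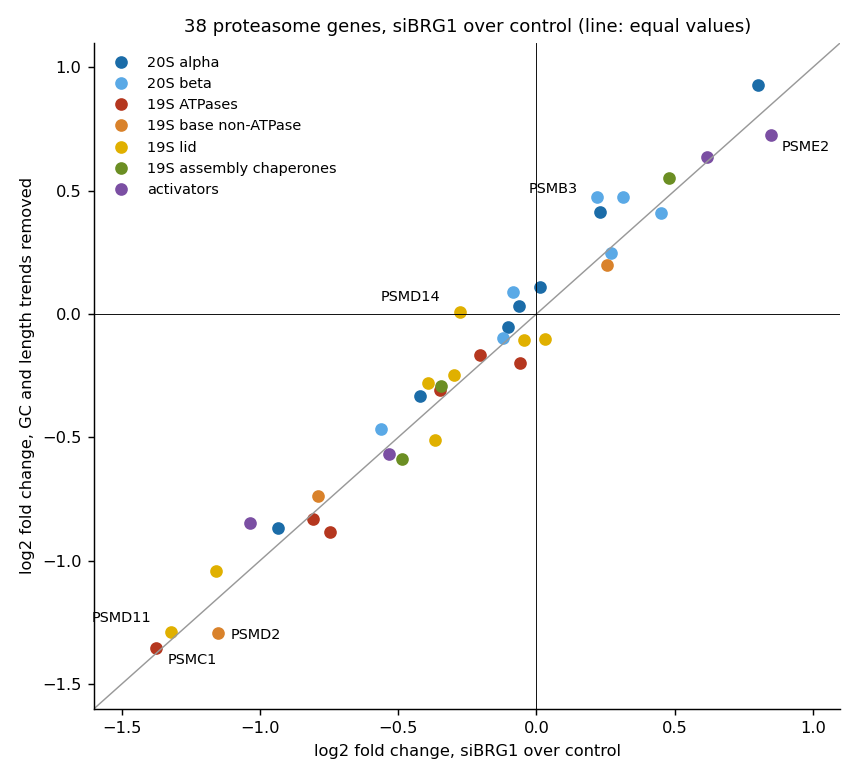
Log2 fold change (siBRG1 over control) of the 38 genes as fitted (x axis) and with trends of GC content and transcript length removed (y axis), coloured by class, with a line of equal values. Most points lie near the line, and PSMD14 moves from −0.28 to 0.01.

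Genes that act with the proteasome were taken from 5 lists chosen for their role. Of 17 other subunits, receptors, deubiquitinases and partners of the 26S particle, 13 fell, 2 rose and 2 did not pass (median log2 fold change −0.34). Among them are the base subunit ADRM1, which fell (log2 fold change −0.46), and the lid subunit SEM1, which rose (0.13). The largest fall was in ECPAS, an adaptor of the 26S proteasome, from 319, 311 and 323 CPM to 205, 210 and 201 CPM (log2 fold change −0.63 with SE 0.04, adjusted p = 8.22e-15). Its groups did not overlap. With trends of GC content and length removed 12 of the 17 fell and 4 rose.

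Of 5 factors that assemble the 20S core, 1 rose, 2 fell and 2 did not pass. PSMG1, a chaperone of the alpha ring that works as a pair with PSMG2, fell from 81.4, 83.4 and 87.7 CPM to 58.4, 58.6 and 56.9 CPM (log2 fold change −0.54 with SE 0.05). PSMG2 rose from 47.1, 48.7 and 46.6 CPM to 57.3, 63.4 and 62.0 CPM (log2 fold change 0.36 with SE 0.06). Neither overlapped between groups.

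Of 7 genes that control proteasome transcription through NRF1, 3 rose, 2 fell and 2 did not pass. NFE2L1, which encodes NRF1 itself, rose from 274, 287 and 281 CPM to 407, 399 and 359 CPM (log2 fold change 0.47 with SE 0.04, adjusted p = 5.10e-11). MAFF, a small MAF partner, had the largest rise, from 15.5, 19.3 and 17.7 CPM to 36.9, 33.5 and 32.7 CPM (log2 fold change 0.98 with SE 0.08, adjusted p = 1.58e-11). DDI2, the protease that cleaves NRF1 into its active form, had the largest fall, from 55.1, 56.9 and 55.3 CPM to 40.3, 40.1 and 35.0 CPM (log2 fold change −0.54 with SE 0.06, adjusted p = 6.60e-09). With trends of GC content and length removed the list had 2 rises and 3 falls, and its median went from 0.08 to −0.03. MAFG then lost its rise (log2 fold change 0.10, adjusted p = 0.146) and MAFK was called lower (−0.18, adjusted p = 0.0298), while the calls of NFE2L1, MAFF and DDI2 were kept. RNA levels do not report the cleavage of NRF1.

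Of 9 genes of ubiquitin supply and substrate unfolding, 2 rose, 4 fell and 3 did not pass. VCP, the unfolding ATPase ahead of the proteasome, had the largest fall (log2 fold change −0.42 with SE 0.04), from 500, 503 and 505 CPM to 368, 383 and 379 CPM. With trends of GC content and length removed 1 gene of the list rose and 2 fell. UBA6, a ubiquitin-activating enzyme, then went from −0.37 to −0.04 (adjusted p = 0.369) and lost its fall.

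The lid shares its architecture with the COP9 signalosome, which removes NEDD8 from cullins, and with the translation initiation factor eIF3, so these were set beside it, with the CCT chaperonin as a further large complex. Of 10 COP9 genes 7 rose, 1 fell and 2 did not pass, with a median log2 fold change of 0.22, against 0 rises and 6 falls among the 8 lid genes. COPS7A had the largest rise (0.71, SE 0.05) and COPS3 the only fall (−0.14, SE 0.04). Of 13 eIF3 genes tested 7 rose and 6 fell (median 0.09), from EIF3E (0.75, SE 0.04) to EIF3J (−1.01, SE 0.05). EIF3C, among the falls, lay at only 5.87 ± 1.43 CPM in siBRG1 and 11.1 ± 0.338 CPM in control (SD, n = 3). EIF3CL, also listed, was too low to be tested. Reads placed at several sites are left out, and their part in the fall of EIF3C was not tested. With trends of GC content and length removed 5 eIF3 genes rose and 5 fell, and the authors' deposited table called 5 higher and 7 lower (median log2 fold change −0.06). The rises of EIF3I and EIF3F were called in 7 and 9 of 16 alternatives. Of 8 CCT genes 6 fell, 1 rose and 1 did not pass (median −0.25), from CCT4 (0.29, SE 0.04) to CCT6A (−0.80, SE 0.04). A test of the difference between complexes was not made, and genes of 1 complex are not replicates.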

How the data were processed

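The authors deposited raw gene counts for each of the 6 libraries, as STAR's gene count output with unstranded and both stranded columns. The tools in the submitters' processing notes are STAR, DESeq2, FastQC, Trim Galore and cutadapt, with no version, and the build is GRCh38.p12. For the gene annotation, no release is given in the sources used here. Among 58336 gene identifiers 56888 matched GENCODE 29 with their version and 58216 without it, and of the 38 members 37 matched with their version and 1 without. The authors' deposited table of the whole series gives log2 fold changes, standard errors and adjusted p-values by gene symbol, per the file headers, and is used only where named. Its other columns, a mean signal and a shrunken log2 value, were not used.

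The strand column with the larger total was taken as sense. Entries that name no gene (several places 20.3% and 9.81%, no feature 3.97% and 13.3%, ambiguous 3.11% and 4.16%, unmapped 1.84% and 1.64% of all reads in siBRG1 and control) were left out. Counts of 3 stand for 0.236 CPM in siBRG1 and 0.0690 CPM in control on average. Within a group, counts of any 2 libraries differed beyond sampling noise (chi-square over its degrees of freedom 2.65 to 4.55), and each was kept as 1 replicate. The comparison used edgeR 4.0.16 in R 4.3.3 (TMM, filterByExpr, robust quasi-likelihood fit, two-sided), with Benjamini-Hochberg adjustment over 15830 genes and calls at an adjusted p under 0.05. The SE is the log2 fold change over the square root of F, and intervals are 2 SE wide on each side. CPM per library are TMM-scaled.

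The members, lists and tests were chosen with earlier results of these data known. Values per library and full statistics were given for SMARCA4, in each class for the 2 members with the largest change past the threshold and for every member that did not pass, and for the largest rise and fall of each other list. Values of other members and of PSMB8, PSMB9, PSMB10 and NFE2L1 were added to these after they were seen. KIAA0368 of the planned list is ECPAS in the annotation. The alternatives were DESeq2 1.42.0, library totals, upper-quartile factors, no count filter, at least 50 counts in 3 libraries, unstranded counts, protein-coding genes alone, removal of GC and length trends (splines with 5 degrees of freedom), a replicate block, and leaving out each library. Leaving out the 4 members that share over 10% of their exon bases and lengths without shared exons were added after seeing the data. The script was tested on simulated data: nearly all changed genes with at least 50 counts were recovered, and 2-fold changes in genes with few counts were partly missed. The criterion on genes of 50 counts was set after the first simulated runs. Some results for genes that act with the proteasome are not reported here.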

Additional observations from a re-analysis of the deposited data

How the results depend on the processing

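Of the 32 members called, 26 kept their call under all 16 alternatives, and PSMA2, PSMA7, PSMB1, PSMD7, PSMD9 and PSMD14 lost it under at least 1. Each of the 6 members not called changed direction or passed under at least 1. The called falls of 19S genes kept their direction in the alternatives run, except PSMD7 with unstranded counts and PSMD14 with GC and length trends removed. The SMARCA4 log2 fold change was −2.21 to −1.89 when each library was left out. Depth limits PSMA1, PSMA2, PSMA6 and PSMD9, the members with the fewest counts. The cause of the changes listed here was not tested.

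Median log2 fold changes are given in the order of all 38 members, alpha, beta, ATPases, the other PSMD genes and activators. They were −0.16, 0.012, 0.29, −0.47, −0.28 and 0.12 with library totals, where 1 beta gene was called lower, and −0.29, −0.11, 0.17, −0.59, −0.40 and −0.0018 with no count filter. With unstranded counts they were −0.11, −0.011, 0.28, −0.49, −0.30 and 0.12, with 1 alpha and 1 beta gene called lower. Upper-quartile factors gave −0.22 for all members and 0.066 for activators. With protein-coding genes alone they were −0.28 for all members, −0.11 for alpha, 0.18 for beta, −0.40 for the other PSMD genes and 0.0012 for activators. Removal of GC and length trends gave −0.18 for all members, 0.033 for alpha, 0.25 for beta and −0.29 for the other PSMD genes. Without the 4 members that share over 10% of their exon bases, a choice made after seeing the data, they were −0.16 for all members and −0.026 for alpha, with 1 alpha gene higher and 1 lower. Leaving out each library in turn gave −0.26 to −0.22 for all members and 0.0072 to 0.0502 for activators.

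Members near 0 changed sign. With library totals PSMA4 was at 0.012, PSMC3 at 0.018 and PSMD13 at 0.032. With GC and length trends removed PSMA4 was at 0.033, PSMB7 at 0.088, PSMD8 at −0.10 and PSMD14 at 0.0103. PSMA5 was at −0.00503 with DESeq2. PSMA5 and PSMD8 were at −0.033 and −0.013 with no count filter and at −0.0296 and −0.0104 with protein-coding genes alone. With unstranded counts PSMD7 was at 0.054 and PSMD13 at 0.012. Leaving out each library moved PSMA5 between −0.026 and 0.053, PSMD8 between −0.0136 and 0.069 and PSMD13 between −0.0903 and 0.0054.

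Labels of both groups carry replicate numbers. Deviations from the group means correlated at −0.0126, 0.0220 and 0.00898 between libraries of the same number, so the numbers do not pair the libraries. A replicate block left 11194 genes called in place of 11498 and changed no member's call. The replicate block with GC and length trends removed gave medians of −0.18 for all members, 0.033 for alpha, 0.25 for beta and −0.29 for the other PSMD genes, with PSMA4 at 0.033, PSMB7 at 0.087, PSMD8 at −0.10 and PSMD14 at 0.0099.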
